A study of Sus scrofa with 59 samples.

Results

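Expression of 5 markers of blood vessel endothelium, CDH5, EGFL7, CD93, PECAM1 and VWF, was followed through the longissimus dorsi muscle (the long back muscle) of 59 pigs. They were taken by gene symbol and are 5 of 6765 genes with a symbol of their own on the array. The pigs came from a cross given as LD/LW x Duroc, were 170 days old, and were sampled at slaughter, with 1 Affymetrix porcine array per pig. The labels mention 33 recorded carcass and meat traits, not analysed here, and name no treatment, sex or array batch. The 59 pigs therefore formed 1 group, and every relation below runs across pigs.

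Endothelial cells line all blood vessels, and in skeletal muscle most of them sit in capillaries that run along the fibres. Slow, oxidative fibres are typically served by more capillaries than fast, glycolytic fibres, and fat depots between the fibres have capillaries of their own. The relations examined here concern capillary supply, that is, how endothelial transcripts stood to transcripts of slow fibres, of mitochondria and of adipocytes. In bulk muscle, fewer cells of a type and less RNA per cell cannot be told apart.

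The values are normalised log2 expression values of probe sets, the groups of short probes that together read 1 transcript. They ranged from 2.39 to 15.04 over the whole array, with array medians between 6.23 and 6.30, and any 2 arrays correlated at r = 0.969 to 0.995. A probe set was tested when its mean reached 6.27, the median of all probe set means, which kept 12000 probe sets. The 5 genes have 10 probe sets, of which 7 passed that filter and 3 lay below it. Each gene was read from its brightest probe set, and all 5 of these passed. Probe sets differ in their response, so levels are not compared between genes. Pig 72 stood apart in muscle type: of the 59 pigs it had the highest slow fibre, oxidative phosphorylation and fatty acid oxidation scores (gene list means defined below) and the lowest fast fibre score.

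CDH5 encodes VE-cadherin, the cadherin that joins neighbouring endothelial cells at adherens junctions. Its level was 8.41 in the lowest pig, 9.04 at the median and 9.96 in the highest, with a mean of 9.06 ± 0.28 (SD, n = 59). Pigs 21 and 72, at 9.96 and 9.85, stood above the third-highest pig at 9.60, and pig 66 was lowest. The second CDH5 probe set lay below the filter at a mean of 5.51 and followed the first at r = 0.341.

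PECAM1 (CD31) is an adhesion molecule of endothelial contacts that platelets and leukocytes also carry. It ranged from 8.35 through a median of 8.98 to 9.80, with a mean of 9.01 ± 0.27 (SD, n = 59). Its extremes were partly those of CDH5: pig 21 was highest at 9.80, pig 72 second at 9.66 and pig 66 lowest at 8.35. Its second probe set, with a mean of 7.10, followed the first at r = 0.612, the closest accord between probe sets of 1 gene here.

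EGFL7 encodes a secreted protein that endothelial cells lay into the matrix around growing vessels. Its single probe set ranged from 7.65 through a median of 7.96 to 8.26, with a mean of 7.96 ± 0.15 (SD, n = 59). That SD lay at the 17.2nd percentile of all tested probe sets, so EGFL7 varied less between pigs than most transcripts. The SDs of CDH5, PECAM1 and VWF lay at percentiles 73.9, 71.5 and 73.7.

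VWF encodes von Willebrand factor, which endothelial cells store and release to tether platelets, and which platelets also hold. It ranged from 6.87 through a median of 7.58 to 8.22, with a mean of 7.58 ± 0.28 (SD, n = 59). Pigs 19 and 72 were highest at 8.22 and 8.21, and pig 57 was lowest. Both other VWF probe sets lay below the filter, with means of 5.99 and 5.96, and did not follow the brightest one (r = -0.049 and -0.085).

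CD93 encodes a lectin-like receptor of endothelial and myeloid cells. It varied most of the 5, from 7.30 through a median of 8.30 to 8.94, with a mean of 8.28 ± 0.40 (SD, n = 59), at the 89.7th percentile of SDs. Pig 72, at or near the top for the other 4 genes, was the lowest for CD93, then pig 52 at 7.31, and pig 69 was highest. Its other probe set, with a mean of 6.39, did not follow the first (r = -0.118).

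**Figure D1:**
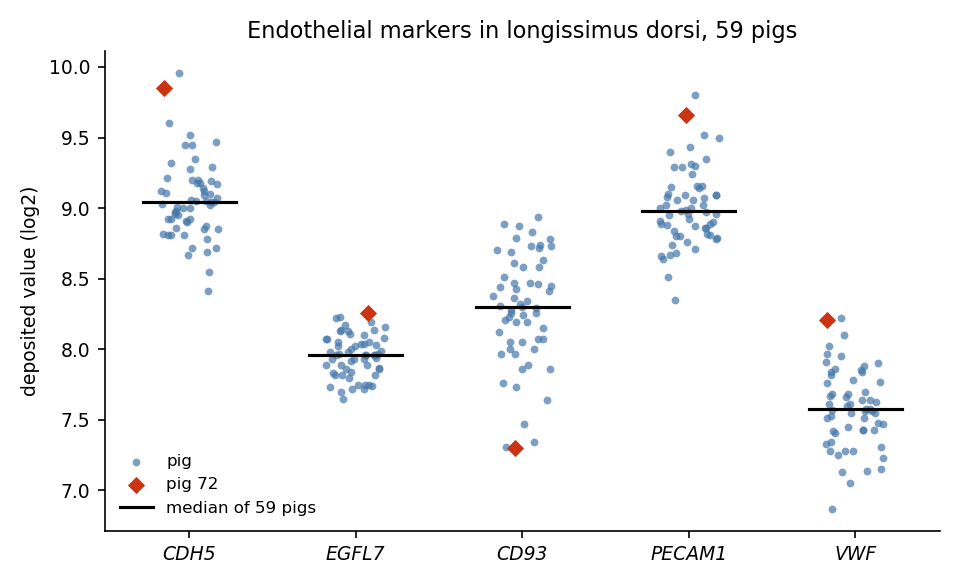
Values of the 5 endothelial markers in each of 59 pigs (points, log2 on the vertical axis, brightest probe set), with the median as a line and pig 72 as a red diamond. Pig 72 sits at 9.85 for CDH5, 8.26 for EGFL7, 9.66 for PECAM1 and 8.21 for VWF, near the top of each column, and at 7.30 for CD93, the bottom of its column; heights are not comparable between genes.

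The markers did not move as 1 block. Every tested probe set was fitted on each marker in turn with limma, and p-values were adjusted over all probe sets tested. CDH5 and PECAM1 rose together: PECAM1 was 0.18 ± 0.027 higher (log2, SE) per SD of CDH5, with a limma adjusted p of 2.83e-06. Pearson's r was 0.660 and Spearman's rho 0.584, both at the smallest permutation p that 100000 resamples can give, 1e-05 (adjusted 0.00122 and 0.0025). Without pigs 21 and 72 the r was 0.529 and the limma adjusted p 0.00387.

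PECAM1 and VWF also rose together, at r = 0.482 and rho = 0.438. VWF was 0.14 ± 0.032 higher per SD of PECAM1 (limma adjusted p = 0.00552; permutation p = 0.00015 for r and 0.00068 for rho, adjusted 0.00829 and 0.0231). In the reverse fit, on VWF, the limma adjusted p was 0.0135, and without pigs 19 and 57, the farthest in VWF, it was 0.156 at r = 0.394. The fit on PECAM1 still passed without pigs 21 and 72, at 0.0147.

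CDH5 and EGFL7 had r = 0.348 and rho = 0.338. The limma adjusted p was 0.131 in the fit on CDH5 and 0.0366 in the fit on EGFL7 (permutation p = 0.0063 for r and 0.00886 for rho, adjusted 0.0373 and 0.0503). Without pigs 15 and 72 it was 0.217, at r = 0.224. CDH5 with VWF (r = 0.290, limma adjusted p = 0.237) and EGFL7 with VWF (r = 0.185) or PECAM1 (r = 0.089) did not pass. CD93 passed with none of the other 4, at r = -0.292 with CDH5, -0.167 with EGFL7, -0.165 with PECAM1 and 0.002 with VWF.

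Endothelial identity was then checked with 18 other endothelial genes that passed the filter, of 24 on the array; the VEGF receptors KDR and FLT1, TIE1, NOS3, CALCRL and ADGRL4 lay below it. Of all probe sets tested, 3.39% followed CDH5, 2.88% upward and 0.508% downward. Among the 18 genes, 14 rose with CDH5, none fell, and the median slope was 0.12 log2 per SD of CDH5, against -0.0048 for all probe sets. GNG11, a G protein gamma subunit, led at 0.18 ± 0.018 (r = 0.813, limma adjusted p = 1.75e-11). S1PR1, the sphingosine 1-phosphate receptor of endothelium, followed at r = 0.794 (limma adjusted p = 1.08e-10).

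Caveolin CAV1 (r = 0.785) and the transcription factor ERG (r = 0.778) were close behind, at limma adjusted p of 7.02e-10 and 4.5e-10. The junction protein ESAM (r = 0.717), the adrenomedullin co-receptor RAMP2 (0.691), the adhesion molecule ICAM2 (0.679), the water channel AQP1 (0.539) and the tight junction claudin CLDN5 (0.534) also rose. The angiopoietin receptor TEK, NOTCH4, the arterial ligand EFNB2, endoglin ENG and ECSCR passed at r between 0.410 and 0.525. CD34, the Notch ligand DLL4, ETS2 and PALMD did not pass. Without pigs 21 and 72, 9 of the 14 passed: TEK, ESAM, ERG, ICAM2, RAMP2, S1PR1, GNG11, CAV1 and AQP1.

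PECAM1 was set against the same 18 genes. Of all probe sets, 6.38% followed PECAM1, 4.53% upward and 1.85% downward, while 9 of the 18 endothelial genes rose and 1, PALMD, fell. RAMP2 (r = 0.753, limma adjusted p = 1.65e-08), ERG (r = 0.670, 4.08e-06) and CLDN5 (r = 0.651, 7.62e-06) led, and ESAM, ICAM2, S1PR1, GNG11, CAV1 and AQP1 completed the 9. The median slope of the 18 was 0.071 log2 per SD, against -0.00077 over all probe sets. Without pigs 21 and 72, 7 rose: CLDN5, ERG, ICAM2, RAMP2, GNG11, CAV1 and AQP1.

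EGFL7 and VWF gave other counts. With EGFL7, 6 of 18 endothelial genes rose (CD34, NOTCH4, ECSCR, ESAM, S1PR1 and GNG11), but 19.2% of all probe sets followed EGFL7, 8.72% upward and 10.5% downward. Without pig 72, CD34, NOTCH4 and ECSCR passed of the 18. With VWF none of the 18 passed by limma at an adjusted p under 0.05, although 15 of the 18 slopes were positive; of all probe sets 2.56% followed VWF (1.61% upward and 0.95% downward), and 19.5% had an unadjusted p under 0.05. Without pigs 19 and 57, the highest and lowest in VWF, 2 probe sets followed VWF by limma, against 307 with them. These were PINK1 and ADIPOR2, and 12.3% of probe sets had an unadjusted p under 0.05. Any other gene named below as passing in a fit on VWF did not pass without those pigs.

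CD93 went against its label. With CD93, 15.2% of all probe sets passed, 10.6% upward and 4.63% downward, and 4 of the 18 endothelial genes fell while none rose. These were AQP1 (r = -0.498, limma adjusted p = 0.0017), ICAM2 (-0.383, 0.0252), CAV1 (-0.352, 0.045) and ERG (-0.341, 0.0493). Without pig 72 only AQP1 still passed, and without pigs 52 and 72 none did. The dimmer second probe sets of CD93, CDH5 and PECAM1 were each followed by none of the 18. The used CD93 probe set is described below by its own leading genes and not as a measure of endothelium.

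A score was formed for each list as the mean of its standardised genes, scaled to an SD of 1, with none of the 5 markers in it. Over the score of the 18 endothelial genes, which spanned 0.63 log2 units between the lowest and highest pig, 4.27% of probe sets passed. CDH5 rose by 0.25 ± 0.019 log2 per SD (r = 0.874, limma adjusted p = 1.89e-15) and PECAM1 by 0.18 ± 0.027 (r = 0.672, 2.4e-06). EGFL7 rose by 0.068 ± 0.018 (r = 0.460, limma adjusted p = 0.015), and its adjusted p was 0.0749 without pigs 21 and 72. VWF (slope 0.059, r = 0.207, 0.399) and CD93 (slope -0.13, r = -0.334, 0.107) did not pass. CDH5 and PECAM1 kept their calls without those 2 pigs, at r = 0.818 and 0.550.

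**Figure D2:**
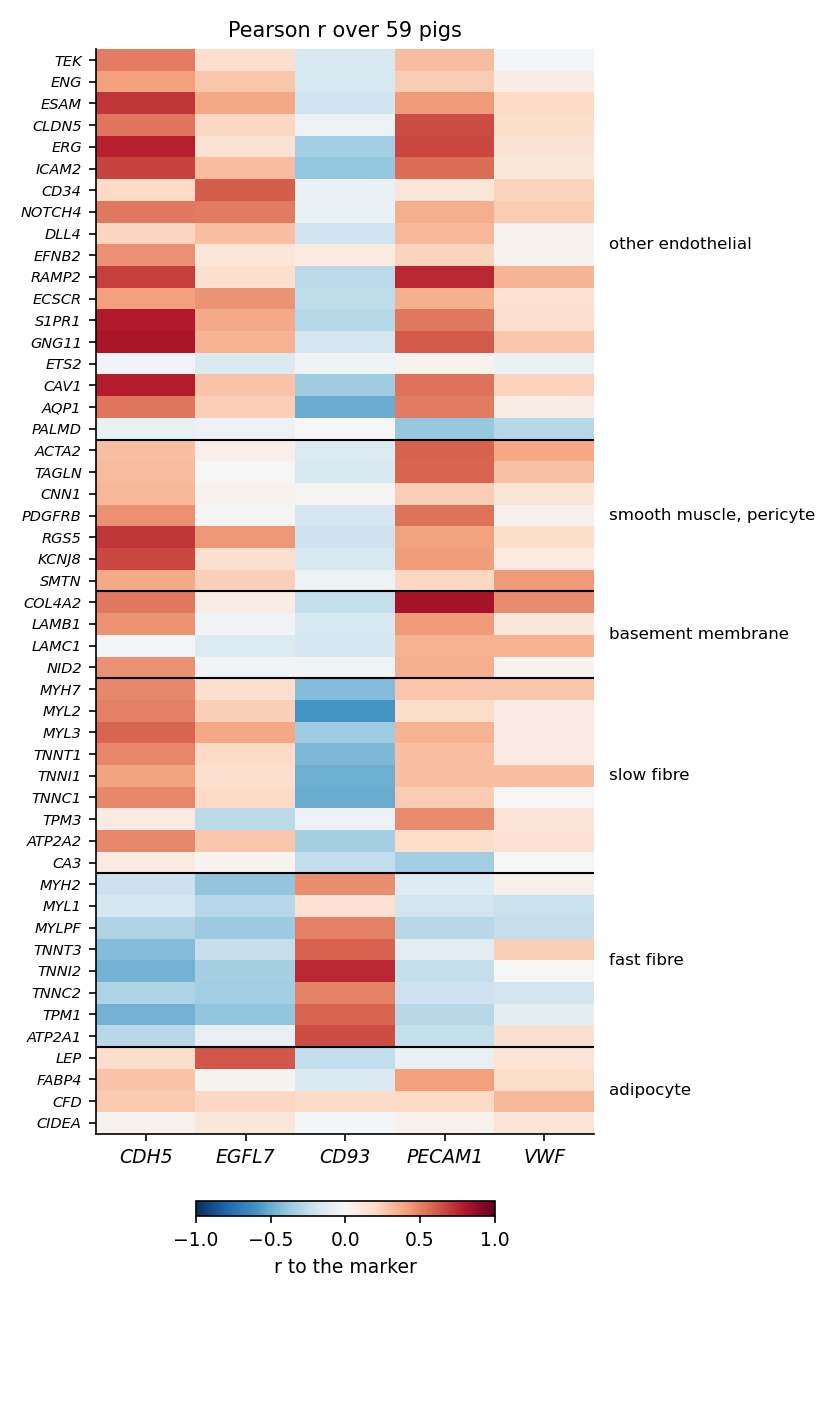
Pearson's r over 59 pigs between each endothelial marker (columns) and each gene of 6 lists (rows; lists separated by lines), from blue (negative) to red (positive). CDH5 and PECAM1 are red over most of the other endothelial genes, reaching 0.813 for GNG11 and 0.753 for RAMP2; CD93 is blue over slow fibre genes and red over fast fibre genes, reaching 0.756 for TNNI2.

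Cells of the vessel wall were examined next, because pericytes and smooth muscle surround the endothelium. Of all probe sets, 3.06% passed with the score of 7 smooth muscle and pericyte genes. CDH5 rose by 0.20 ± 0.027 log2 per SD (r = 0.704, limma adjusted p = 2.33e-07) and PECAM1 by 0.18 ± 0.027 (r = 0.664, 2.51e-06), and both passed without pigs 12 and 72 (1.33e-05 and 0.000291). EGFL7, CD93 and VWF did not pass, at slopes of 0.031, -0.077 and 0.098.

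The vessel wall genes that passed are given for each junction marker; the difference between the markers was not tested. With CDH5, 3 of 7 rose: the pericyte genes RGS5, a regulator of G protein signalling (r = 0.712, limma adjusted p = 1.14e-07), KCNJ8, a potassium channel subunit (r = 0.668, 2.25e-06), and the PDGF receptor PDGFRB (r = 0.458, 0.0137). With PECAM1, 5 of 7 rose, led by the contractile genes ACTA2 (r = 0.586) and TAGLN (r = 0.585), each at a limma adjusted p of 0.000189, and PDGFRB (r = 0.546, 0.00112). RGS5 and KCNJ8 followed PECAM1 at r = 0.403 and 0.415, and neither passed without pig 72, which left ACTA2, TAGLN and PDGFRB. The 3 calls with CDH5 held without that pig, and the PDGFRB call ended without pigs 21 and 72. CNN1 passed with neither marker. Among all probe sets, 2.88% rose with CDH5 and 4.53% with PECAM1. SMTN, also of smooth muscle, passed with VWF (r = 0.428, limma adjusted p = 0.0332) and not without pig 72. RGS5 also rose with EGFL7 (r = 0.430, limma adjusted p = 0.00653), and without pig 72 at 0.0229. No probe set followed EGFL7 with the mean of the dim probe sets of an array (described below) as covariate.

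Endothelial cells and pericytes share a basement membrane, and the mean of its genes went with PECAM1 and CDH5. With the score of 4 basement membrane genes, which 8.16% of probe sets followed, PECAM1 rose by 0.19 ± 0.026 log2 per SD (r = 0.695, limma adjusted p = 2e-06) and CDH5 by 0.14 ± 0.032 (r = 0.499, 0.00271). VWF, at 0.097 ± 0.035, had an adjusted p of 0.0704. COL4A2, a chain of type IV collagen, had the highest r to PECAM1 of any gene tested, 0.829, with a slope of 0.22 ± 0.020 and a limma adjusted p of 4.89e-12. COL4A2 also rose with CDH5 (r = 0.524, 0.00155) and VWF (r = 0.474, 0.0168), and not with EGFL7 or CD93. With PECAM1 2 of the 4 genes rose, COL4A2 and LAMB1, beside 4.53% of all probe sets. With CDH5 3 rose, all but LAMC1 (r = -0.023), beside 2.88%. Without pigs 21 and 72, COL4A2 and LAMC1 passed with PECAM1 and COL4A2 alone with CDH5.

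Slow fibre genes were the first of the 3 main relations. The slow fibre score held 9 genes of slow muscle: contractile and calcium handling genes and the carbonic anhydrase CA3. It spanned 0.95 log2 units from the lowest to the highest pig. Along it, 4.63% of probe sets passed, 2.77% upward and 1.86% downward, and the median slope of all probe sets was -0.0040. CDH5 rose by 0.15 ± 0.032 log2 per SD of the score (limma adjusted p = 0.00186). Pearson's r was 0.523 (permutation p = 2e-05, adjusted 0.00242) and rho 0.433 (permutation p = 0.00073, adjusted 0.0349). CD93 fell by 0.20 ± 0.045 (limma adjusted p = 0.00322), at r = -0.502 (permutation p = 8e-05, adjusted 0.00554) and rho = -0.434 (permutation p = 0.00063, adjusted 0.0323).

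The other 3 markers had positive slopes that did not pass: 0.078 ± 0.034 for PECAM1 (r = 0.285, limma adjusted p = 0.207), 0.046 ± 0.036 for VWF (r = 0.162, 0.567) and 0.030 ± 0.020 for EGFL7 (r = 0.203, 0.456). The other probe sets of CDH5, PECAM1 and VWF had r to the score of 0.045 (CDH5), 0.009 (PECAM1), -0.073 and -0.046 (VWF). The CDH5 and CD93 calls both ended without 1 pig. Pig 72 had the highest slow fibre score, 3.36 SD above the mean, and without it the limma adjusted p was 0.0537 for CDH5 and 0.0601 for CD93. Without pigs 69 and 72, the farthest from the median of the score, CDH5 had a slope of 0.11 ± 0.032 (r = 0.418, 0.0834) and CD93 one of -0.14 ± 0.046 (r = -0.380, 0.143), neither of which passed.

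**Figure D3:**
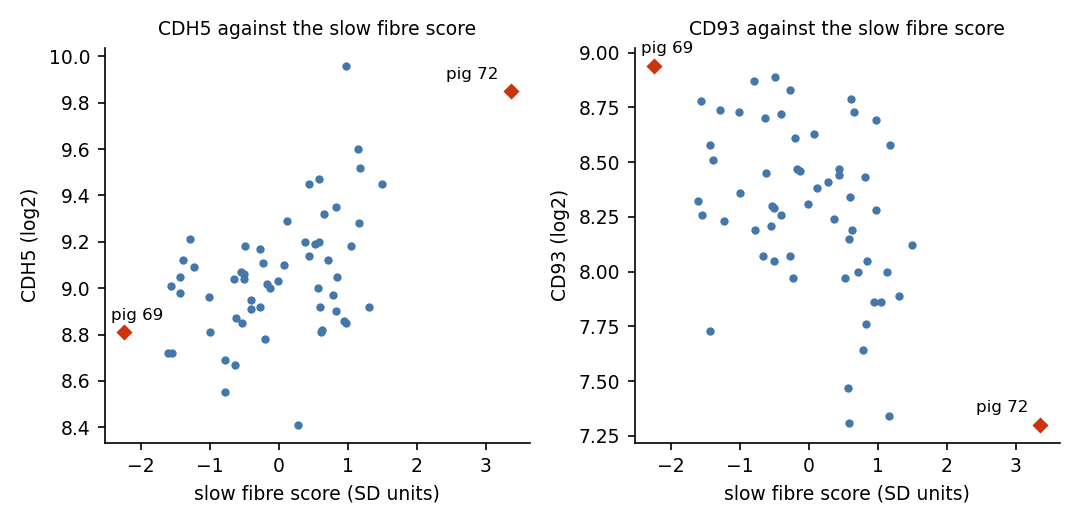
CDH5 (left) and CD93 (right), in log2, against the slow fibre score in SD units, 1 point per pig (n = 59), with pigs 69 and 72, the farthest from the median score, as red diamonds. CDH5 climbs and CD93 drops along the score, r = 0.523 and -0.502; pig 72 lies alone at a score of 3.36.

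Gene by gene, 7 of 9 slow fibre genes rose with CDH5. MYL3, the slow myosin light chain, had the largest slope, 0.20 ± 0.037 (r = 0.584, limma adjusted p = 0.00013). The calcium pump ATP2A2 and the slow sarcomere genes MYH7, MYL2, TNNT1, TNNI1 and TNNC1 rose at r between 0.404 and 0.507. The tropomyosin TPM3 (r = 0.084) and the carbonic anhydrase CA3 (r = 0.091) did not pass. Without pig 72, MYL3 alone passed of the 9, while all 9 slopes remained positive. With PECAM1, TPM3 was the 1 slow fibre gene that rose (r = 0.472, limma adjusted p = 0.00675), and CA3 had r = -0.346 (0.0883). Of the 9, MYL3 alone rose with EGFL7 (r = 0.383, 0.0184), a call that ended without pig 72, and none passed with VWF. The TPM3 call with PECAM1 held without that pig. The shares of all probe sets that rose were 2.88% with CDH5, 4.53% with PECAM1 and 8.72% with EGFL7. The 1 of 9 with EGFL7 lay near its share.

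The fast fibre score, of 8 genes, spanned 0.37 log2 units, and 23.5% of all probe sets passed along it, 15% upward and 8.48% downward. Its genes MYH2, MYL1, MYLPF and TNNC2 had means of 14.72, 14.76, 14.70 and 14.79, near the highest array value of 15.04. Their SDs were 0.03 to 0.05, while ATP2A1 lay lower, at 12.10 with an SD of 0.24. Compression of differences near the top of the range was not tested. CDH5 fell by 0.12 ± 0.034 log2 per SD (r = -0.422, limma adjusted p = 0.00699) and EGFL7 fell by 0.057 ± 0.019 (r = -0.386, 0.0189). Both calls were lost without pigs 41 and 72, at adjusted p of 0.261 and 0.208. Pig 72 had the lowest fast fibre score, -4.22. PECAM1 (slope -0.072) and VWF (-0.013) did not pass.

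CD93 rose along the fast fibre score by 0.27 ± 0.039 log2 per SD (r = 0.668, limma adjusted p = 1.31e-06), and by 0.24 ± 0.040 without pigs 41 and 72 (1.76e-05). TNNI2, the fast troponin I, was the gene most like CD93 over the 59 pigs, at r = 0.756 and a limma adjusted p of 6.34e-05. The receptor GPRC5B (r = 0.750) and the muscle glycogen phosphorylase PYGM (r = 0.732) came next. The TNNI2 slope was 0.043 ± 0.0075 log2 per SD of CD93. TNNI2 ran only from 14.31 to 14.58, near the highest array value of 15.04, and compression of differences there was not tested. CD93 was followed upward by 10.6% of all probe sets and downward by 4.63%. Of 8 fast fibre genes, 5 rose with CD93: TNNI2, TNNT3, TPM1, the fast calcium pump ATP2A1 (r = 0.656) and MYH2. Of 9 slow fibre genes, 6 fell, led by MYL2 (r = -0.597, limma adjusted p = 0.000143), and without pig 72 MYL2, TNNI1 and TNNC1 still fell and the fast genes other than MYH2 still rose. The second CD93 probe set had r = -0.267 to the fast fibre score and 0.101 to the slow fibre score, the opposite sign in each; it also had r = 0.525 to the mean of the dim probe sets of an array (described below), whose part in these values was not tested.

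Mitochondrial genes were the second main relation. The oxidative phosphorylation score held 59 subunits of the respiratory chain and ATP synthase and spanned 0.63 log2 units. Of all probe sets 9% passed along it, 6.68% upward and 2.32% downward. CDH5 rose by 0.13 ± 0.033 log2 per SD (r = 0.470, limma adjusted p = 0.00379). The permutation p of r was 0.00018 (adjusted 0.00468), while rho was 0.314 with a permutation p of 0.0149 (adjusted 0.137). Without pig 72 the limma adjusted p was 0.0679, and without pigs 36 and 72 the slope was 0.095 ± 0.033 (r = 0.357, 0.0829).

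No other marker passed along the oxidative phosphorylation score. CD93 had a slope of -0.13 ± 0.049 (r = -0.312, limma adjusted p = 0.106) and PECAM1 0.064 ± 0.035 (r = 0.234, 0.288). EGFL7 had a slope of 0.018 ± 0.020 (0.662) and VWF one of -0.00078 ± 0.037 (0.995). The other probe sets of the markers had r to this score of 0.056 (CDH5), -0.029 (PECAM1), 0.196 (CD93), -0.056 and -0.043 (VWF). The slow fibre and oxidative phosphorylation scores themselves had r = 0.531 over the pigs. With the other 2 main scores as covariates, the CDH5 slope was 0.095 on the slow fibre score (limma adjusted p = 0.195) and 0.091 on the oxidative phosphorylation score (0.122), neither of which passed.

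Of the 59 subunit genes, 14 rose with CDH5 and 58 had a positive slope, with a median of 0.046 log2 per SD of CDH5. Of all probe sets, 2.88% rose with CDH5 and 5266 of 11999 had a positive slope. Among the 59, the complex I subunits NDUFA1 (r = 0.582, limma adjusted p = 0.000321), NDUFV1 (0.529, 0.00162), NDUFAB1 (0.540, 0.00169) and NDUFA3 (0.545, 0.00205) had the smallest adjusted p. Without pigs 21 and 72, NDUFA1 alone passed. With PECAM1 5 rose, NDUFA10, NDUFS7, NDUFV1, SDHA and COX6A1, with EGFL7 2 (NDUFA3 and NDUFB4) and with VWF 2 (NDUFA10 and NDUFB11). Without pig 72, COX6A1 alone of those 5 passed with PECAM1, neither of the 2 with EGFL7, and NDUFB11 with VWF. Of all probe sets, 4.53% rose with PECAM1, 8.72% with EGFL7 and 1.61% with VWF. The 2 of 59 with EGFL7 lay under its share. With CD93 9 fell, beside 4.63% of all probe sets, led by NDUFB5 (r = -0.494, limma adjusted p = 0.00298). Without pig 72, 3 fell with CD93, NDUFA1, NDUFB5 and UQCRB, and without pigs 52 and 72 NDUFB5 alone.

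VWF passed along 1 mitochondrial score, that of fatty acid oxidation. Along the score of 17 such genes, with 8.72% of probe sets called, CDH5 rose by 0.13 ± 0.033 (r = 0.466, limma adjusted p = 0.00494) and VWF by 0.11 ± 0.034 (r = 0.378, 0.0356), and both calls ended without pigs 36 and 72 (0.146 and 0.529). Of the 17 genes, 5 rose with VWF: the acyl-CoA dehydrogenases ACADS (r = 0.519, limma adjusted p = 0.00776) and ACADVL (0.489, 0.0123), HADHA, HADH and the carnitine palmitoyltransferase CPT1B. With CDH5 6 rose, led by the electron transfer flavoprotein subunit ETFB (r = 0.508, 0.00286). The shares of all probe sets that rose were 1.61% with VWF and 2.88% with CDH5. Without pig 72, ACADVL, ACADS and HADHA passed with VWF and ETFB alone with CDH5. No marker passed along the score of TCA cycle genes, with 7.08% of probe sets called.

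**Figure D4:**
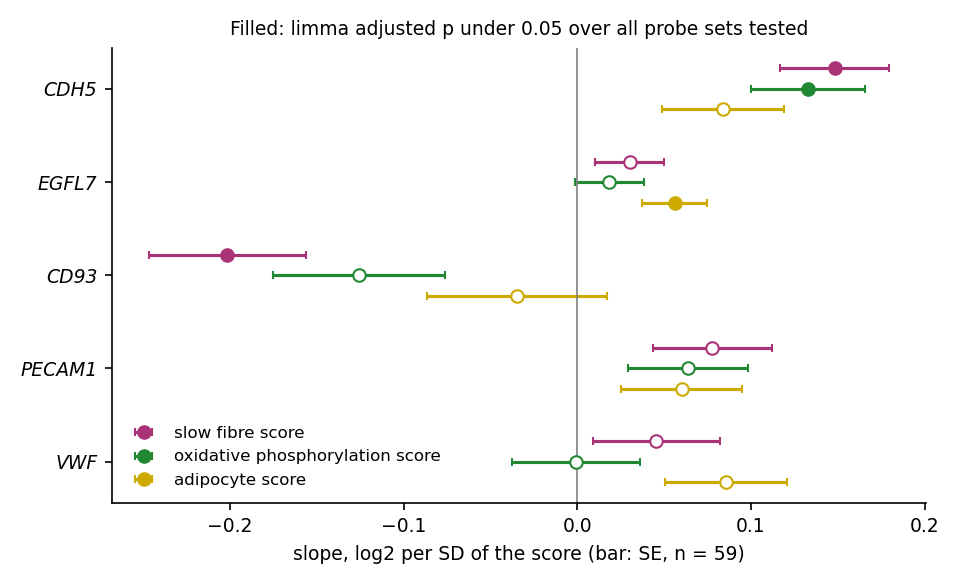
Slopes of the 5 endothelial markers (rows) in log2 per SD of the slow fibre, oxidative phosphorylation and adipocyte scores (colours), with SE bars, n = 59. Filled points passed a limma adjusted p of 0.05: CDH5 at 0.15 and 0.13 on the slow fibre and oxidative phosphorylation scores, CD93 at -0.20 on the slow fibre score and EGFL7 at 0.056 on the adipocyte score.

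Adipocyte genes were the third main relation. The adipocyte score held 4 genes, leptin (LEP), the fatty acid binding protein FABP4, adipsin (CFD) and CIDEA, and spanned 1.00 log2 unit; ADIPOQ, RBP4, RETN and PPARG lay below the filter. Of all probe sets 15.8% passed along it, 5.87% upward and 9.91% downward. EGFL7 rose by 0.056 ± 0.019 log2 per SD (limma adjusted p = 0.0327). Its r was 0.378 (permutation p = 0.00312, adjusted 0.0303) and its rho 0.383 (permutation p = 0.00294, adjusted 0.0298), and r was 0.385 without pigs 43 and 44.

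VWF had a slope of 0.086 ± 0.035 (r = 0.304, limma adjusted p = 0.0812) and CDH5 one of 0.084 ± 0.035 (r = 0.297, 0.089), both short of the threshold. PECAM1 had 0.060 ± 0.035 (r = 0.220, 0.225) and CD93 -0.035 ± 0.052 (r = -0.086, 0.68). The CDH5 and VWF calls depended on the setting: CDH5 passed by ranks, at rho = 0.371 (permutation p = 0.00397, adjusted 0.0359), and VWF passed without pigs 43 and 44, at a slope of 0.10 and a limma adjusted p of 0.0406. The EGFL7 call ended when any of pigs 15, 36, 43, 51, 58 or 71 was left out alone, with adjusted p up to 0.0645.

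Single adipocyte genes split between the markers. LEP rose with EGFL7 (0.11 ± 0.019 log2 per SD, r = 0.622, limma adjusted p = 2.63e-05), and FABP4, CFD and CIDEA did not pass with it (r = 0.026, 0.205 and 0.113). FABP4, which capillary endothelium also expresses, rose with PECAM1 (0.19 ± 0.054, r = 0.407, 0.0263), a call that held without pig 72 and ended without pigs 21 and 72. None of the 4 passed with CDH5, VWF or CD93, and the closest was CFD with VWF (r = 0.335, limma adjusted p = 0.115).

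The EGFL7 relations moved with a property of the arrays. The mean of the 11999 probe sets below the filter, here called the dim level of an array, ran from 4.595 to 4.738, a span of 0.143. EGFL7 followed it at r = 0.723 and LEP at r = 0.818, as did CD34 (0.597) and GPIHBP1 (0.620), the lipase anchor of capillaries that was among the 3 genes most like EGFL7. CDH5 (0.026), PECAM1 (-0.199), VWF (0.121), CD93 (-0.098), FABP4 (-0.241), CFD (-0.024) and CIDEA (0.002) did not follow it that closely. With the dim level as a covariate, the EGFL7 slope on the adipocyte score was 0.034 ± 0.014 (limma adjusted p = 0.0877).

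The same covariate left no probe set following EGFL7 by limma, against 2304 without it, and 7.45% had an unadjusted p under 0.05. The endothelial score relation of EGFL7 remained, at 0.053 ± 0.013 and a limma adjusted p of 0.00597. The other markers' calls on the slow fibre and oxidative phosphorylation scores held with it, CDH5 at 0.00185 and 0.00392 and CD93 at 0.00398. Along other scores it moved some calls: EGFL7 no longer passed on the fast fibre score (0.0983), VWF no longer passed on the fatty acid oxidation score (0.0508), and PECAM1 passed on both (0.0329 and 0.0248). With it VWF also passed on the basement membrane score (0.0287) and PECAM1 on that of ribosomal proteins (0.0478). What sets the dim level was not tested.

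**Figure D5:**
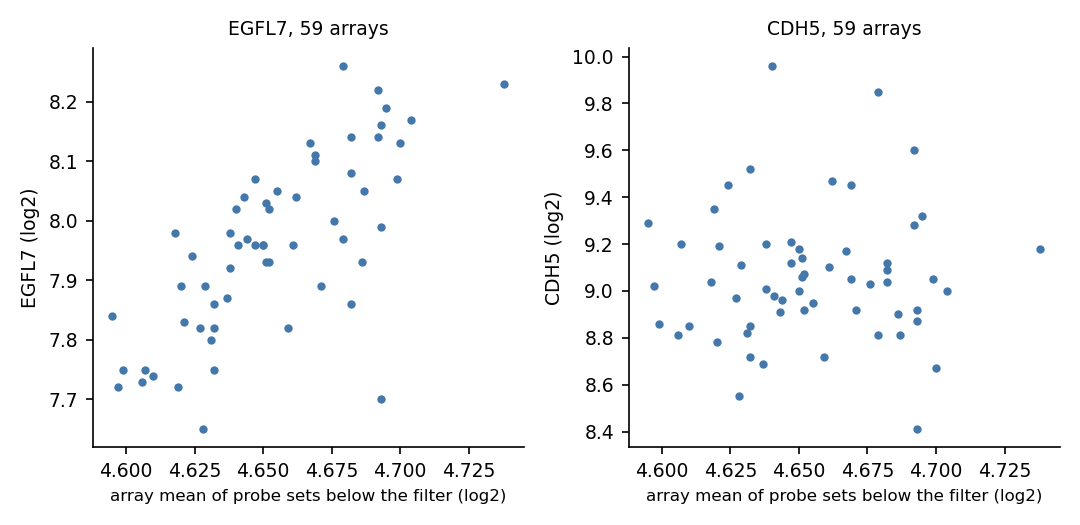
EGFL7 (left) and CDH5 (right), in log2, against the mean of the 11999 probe sets below the filter on each of 59 arrays (log2, horizontal axis), 1 point per array. EGFL7 climbs along the axis (r = 0.723) and CDH5 shows no trend (r = 0.026).

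Genes that handle lipid at the capillary wall were followed as a further group of 5. With CDH5 3 rose: CAV1, the fatty acid binding protein FABP5 (r = 0.640, limma adjusted p = 9.16e-06) and lipoprotein lipase LPL (r = 0.467, 0.00802). With PECAM1 FABP5 (r = 0.521, 0.00205) and CAV1 rose. These counts stand beside 2.88% of all probe sets that rose with CDH5 and 4.53% with PECAM1. With EGFL7 GPIHBP1 rose (r = 0.699, limma adjusted p = 1.7e-06), though no probe set followed EGFL7 with the dim level as covariate. FABP5 (r = -0.575), LPL (-0.484) and CAV1 fell with CD93, the reverse of CDH5. Without pig 72, FABP5 and CAV1 still passed with CDH5 and with PECAM1, GPIHBP1 with EGFL7, and FABP5 and LPL with CD93, while LPL with CDH5 and CAV1 with CD93 did not; without pigs 52 and 72 FABP5 alone passed with CD93.

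Growth signals to vessels gave few calls among 6 genes tested. VEGFB, a VEGF family ligand, rose with CDH5 (r = 0.440, limma adjusted p = 0.0224) and fell with CD93 (r = -0.375, 0.0304). VEGFA, the main angiogenic ligand, rose with CD93 (r = 0.441, 0.0106) and had r = -0.151 with CDH5 (0.682). None of these 3 calls held without pig 72. The hypoxia factor EPAS1, which endothelium expresses strongly, rose with PECAM1 (r = 0.657, 6.61e-06), also without pig 72. Of 7 genes of endothelial activation and clotting control, PROCR, the protein C receptor, rose with PECAM1 (r = 0.373, 0.0475) and the chemokine CCL2 fell with EGFL7 (r = -0.365, 0.0248). Without pig 72 the PROCR call ended, though it held without pigs 21 and 72. The CCL2 call held without pig 72, but no probe set followed EGFL7 with the dim level as covariate.

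Blood cells were checked because PECAM1, VWF and CD93 are not confined to endothelium. No marker passed along the score of 8 macrophage genes, which 9.42% of probe sets followed. The largest slope was that of PECAM1, 0.068 ± 0.035 (limma adjusted p = 0.231). Gene by gene, all 8 had a positive slope on PECAM1, as did 5917 of 11998 probe sets, and none passed. FCER1G (r = 0.324, limma adjusted p = 0.0955) did pass with PECAM1 without pig 72, at 0.0485. With EGFL7 1 of the 8, AIF1, fell (r = -0.328, limma adjusted p = 0.0491), beside 10.5% of all probe sets. The platelet genes ITGA2B, ITGB3 and GP9 passed with neither VWF (r = 0.120, -0.105 and 0.105) nor PECAM1. ITGA2B and GP9 rose with EGFL7 (r = 0.558 and 0.436), while ITGB3 had r = -0.320 and did not pass (limma adjusted p = 0.0605). The haemoglobin gene HBB fell with EGFL7 (r = -0.410, limma adjusted p = 0.0119) and passed with no other marker. The ITGA2B, GP9 and HBB calls with EGFL7 held without pig 72, but no probe set followed EGFL7 with the dim level as covariate.

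Stress and matrix genes were examined last. CD93 fell along the heat shock score by 0.14 ± 0.049 log2 per SD (r = -0.354, limma adjusted p = 0.0135), beside 45.9% of all probe sets called in either direction. Without pigs 30 and 36, the farthest from its median, it fell by 0.16 ± 0.050 (0.00827). Of 15 heat shock genes 5 fell with CD93, HSPD1, HSPE1, HSPA8, CRYAB and DNAJA1, led by the mitochondrial chaperone HSPD1 (r = -0.546, limma adjusted p = 0.000402). The share of all probe sets that fell with CD93 was 4.63%. Without pig 72 the DNAJA1 call ended, and without pigs 52 and 72 HSPD1 alone passed. No other marker passed along that score, EGFL7 coming closest at a slope of -0.044 ± 0.019 (0.0516).

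Of 15 matrix genes outside the basement membrane, 4 rose with PECAM1: the protease inhibitor TIMP1 (r = 0.491, limma adjusted p = 0.00405), the proteoglycan BGN (0.478, 0.00586), the collagen COL6A3 and the fibrillin FBN1. MMP2 rose with CD93, POSTN fell with EGFL7, and none of the 15 passed with CDH5 or VWF. Of all probe sets, 4.53% rose with PECAM1, 10.6% rose with CD93 and 10.5% fell with EGFL7. The 1 of 15 with CD93 and the 1 of 15 with EGFL7 lay under those shares. Differences between markers were not tested. Without pig 72 the calls with PECAM1 held, and those of MMP2 and POSTN ended. No marker passed along the score of the 15 genes, with 13.1% of probe sets called, PECAM1 coming closest at 0.084 ± 0.034 (0.0904). No marker passed along the scores of lipogenesis, immediate early or ribosomal protein genes either, with 7.03%, 19.1% and 6.67% of probe sets called.

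The genes most like each marker over the 59 pigs, by Pearson's r, differed. For CDH5 they were the caveolae protein CAVIN2 (r = 0.842), GNG11 (0.813) and the tetraspanin TSPAN13 (0.812). For PECAM1 they were COL4A2 (0.829), RAMP2 (0.753) and the myosin light chain MYL6 (0.700). For EGFL7 they were TMEM231 (0.769), C4H1orf226 (0.701) and GPIHBP1 (0.699). For VWF, with lower values, they were the mitochondrial kinase PINK1 (0.639), the inositol phosphate synthase ISYNA1 (0.574) and the adiponectin receptor ADIPOR2 (0.572).

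Averaged over the 5 standardised markers, as a description with no test, the level was most like ISYNA1 (r = 0.677), GNG11 (0.664), the matrix protein SPARCL1 (0.650) and the receptor TNFRSF21 (0.631), then RAMP2 (0.596), COL4A2 (0.592), NOTCH4 (0.567) and S1PR1 (0.565). Its r was 0.670 to the endothelial score and 0.617 to the smooth muscle and pericyte score, 0.397 to the adipocyte score, 0.239 to the slow fibre score and 0.182 to the oxidative phosphorylation score. CD93 enters that average with the opposite sign of CDH5 along the fibre type scores, so the average mixes unlike patterns.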

How the data were processed

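The deposited table holds 1 log2 value per probe set and array for 59 arrays; the submitters' processing notes name GCRMA (background correction by probe sequence, quantile normalisation, probe summary), with no version or log base, so log2 was inferred from the range. Of 24123 probe sets, 124 controls were left out; 10099 have 1 gene symbol (9989 updated through Entrez IDs), 198 several and 13826 none. The platform annotation can be old, and 13 genes were matched by older symbols. Each gene was read from its brightest probe set. Every probe set with a mean of at least 6.27 was fitted with limma 3.58.1 (R 4.3.3) on each score or marker, leaving out the probe sets of the regressor, with Benjamini-Hochberg adjustment over all of them and a threshold of 0.05. Correlations had two-sided permutation tests (100000 resamples; Python 3.11.15, numpy 2.4.6, scipy 1.17.1, pandas 2.3.3; figures with matplotlib 3.10.9). Scripts were tested on simulated data.

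The members and the 22 other lists were chosen with earlier results of these data known. Genes named are the 5 markers, endothelial, slow fibre and adipocyte genes, up to 4 genes of another list with the smallest adjusted p in a marker's fit, and the 3 genes most like each marker (8 for their mean); genes counted in groups of 5 or fewer were also named, after their values were seen. Alternatives changed scaling, filter, probe sets, list score, covariates or pigs. An array value counts no molecules; the number of pigs limits precision, and p-values cover the spread between pigs, technical spread included. Genome positions and sequences were not used here.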

Additional observations from a re-analysis of the deposited data

How the results depend on the processing

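Of 175 alternative fits of the slopes on the 3 main scores, 149 kept the direction and the side of the threshold, and of 35 alternative counts of probe sets following a marker, 24 stayed within 1.5 times. Fits leaving out 1 pig are not among the 175, and slopes that passed in neither fit count among the 149. Calls were lost in 5 alternatives on the slow fibre score, 4 on the oxidative phosphorylation score and 6 on the adipocyte score. The dim level covariate and the fits without pig 72 alone were chosen after seeing the data. No paired analysis was possible because the labels give 1 group and the pig numbers pair no samples. The CDH5 slope on the slow fibre score was 0.074 averaging each gene's probe sets, 0.11 without pigs 69 and 72, 0.095 with the other 2 scores as covariates and 0.11 to 0.16 leaving out 1 pig; it passed in none of the 3 named settings, nor without pig 72. CD93 had -0.14 without pigs 69 and 72 and -0.18 with the 2 scores as covariates, neither passing, and -0.22 to -0.16 leaving out 1 pig. On the oxidative phosphorylation score CDH5 had 0.076 averaging probe sets, 0.095 without pigs 36 and 72, 0.091 with the 2 scores as covariates and a rho of 0.314, none passing, and 0.097 to 0.15 leaving out 1 pig. EGFL7 turned to -0.011 without those pigs and to a rho of -0.008; CD93 passed at -0.14 with the heat shock score as covariate; VWF turned to 0.0076 with quantile normalisation and 0.0013 with the macrophage score as covariate, and ran from -0.043 to 0.013 leaving out 1 pig. On the adipocyte score CDH5 passed at 0.095 with quantile normalisation, 0.087 with the other 2 scores as covariates and a rho of 0.371. EGFL7 no longer passed at 0.046 with arrays re-centred, 0.021 averaging probe sets, 0.039 without the filter, 0.016 with the list's first principal component, 0.045 with the heat shock score and 0.034 with the dim level as covariate, and ran from 0.047 to 0.063 leaving out 1 pig. CD93 turned to 0.0050 without pigs 43 and 44 and 0.0054 with the principal component; VWF passed at 0.10 without those pigs and ran from 0.071 to 0.11 leaving out 1 pig, passing without pig 15 or 44. Probe sets following CDH5 numbered 407, or 138 without pigs 21 and 72 and 229 with its other probe set; EGFL7 2304, or 7334 without the filter and 0 with the dim level; CD93 1825, or 685 without pigs 52 and 72, 880 with the heat shock score and 644 with its other probe set; VWF 307, or 170 re-centred, 508 with quantile normalisation, 2 without pigs 19 and 57 and 2656 with 1 of its other probe sets. The cause was not tested in any of these. The pigs are not known by sex, and dim probe sets have compressed differences.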
